A study of Mus musculus with 6 samples.

Results

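The genes described here are 9 markers of the mouse monocyte subsets, taken by symbol from a table of 17382 genes. Ly6c1, Ly6c2, Vcan, F13a1, Plac8 and Hp make up a classical group of 6, and Nr4a1, Ace and Treml4 a nonclassical group of 3. They were measured in 6 RNA-seq libraries of myeloid cells that had been grown from the bone marrow of C57BL/6 mice aged 2 months, with 3 days in medium holding mouse M-CSF at 40 ng/mL, a cytokine that drives marrow cells towards macrophages. All mice carried floxed PD-L1 alleles (PD-L1 flox/flox). The 3 libraries labelled CKO came from mice that also carried lysozyme-Cre, a recombinase driven by a lysozyme promoter that is active in myeloid cells, and the 3 labelled WT came from littermates without it. Whether each library stands for 1 mouse or a pool is not given in the sources used here.

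Monocytes of the mouse are divided into classical cells, which carry much Ly6C on their surface, leave the marrow through Ccr2 and can become macrophages, and nonclassical cells, which carry little Ly6C and patrol the inside of vessels. Nonclassical cells arise from classical ones and depend on the transcription factor encoded by Nr4a1. M-CSF signalling through Csf1r is required for macrophage growth from marrow, so such a culture can hold precursors, monocytes and macrophages side by side. In RNA from whole cultures, fewer cells of a type and less RNA per cell cannot be told apart.

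Reads recovered from the deposited values and summed over the genes of the table came to 52355659 to 77318131 per library. In each library 11525 to 11680 genes reached 1 TPM (a transcript level scaled for gene length and library total). The label of myeloid cells matched abundant Csf1r, Cd68 and Spi1, at 815 to 1525, 1900 to 2500 and 298 to 349 TPM, and the classical monocyte receptor Ccr2 stood at 64.0 to 96.5 TPM. Cd274, which encodes PD-L1, was not lower in the libraries labelled CKO, at 19.3, 19.2 and 29.2 TPM, against 17.9, 15.5 and 23.7 TPM in WT. Since these values sum over the whole gene, loss of the floxed part cannot be read from them, and each direction below rests on the labels. Along the first principal component, with 44.3% of the variance, CKO 1, CKO 2 and WT 3 lay on the negative side and CKO 3, WT 1 and WT 2 on the positive side, a division that cuts across genotype.

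Ly6c1 and Ly6c2 are neighbouring genes for Ly6C, a small surface protein held in the membrane by a lipid anchor. Ly6c1 lies at chr15:75044018-75048837 and Ly6c2 at chr15:75108161-75111949, both on the minus strand of mm10 and 59.3 kb apart. Their longest coding transcripts in GENCODE were 97.6% identical over 822 aligned bases, and 31.7% of the 50-base windows of the Ly6c1 transcript also occur in Ly6c2 transcripts. Reads from such windows can be shared or dropped, and how such reads were counted is not stated in the labels, so the split between both genes is uncertain. Only 5 reads were given to Ly6c1 in all 6 libraries together, against 12491 reads to Ly6c2. The 250 bases before a start of each gene in RefSeq's promoter table (GRCm38.p6) are shown because these neighbours stood so far apart in level. They lie at chr15:75048838-75049087 for Ly6c1 and chr15:75111972-75112221 for Ly6c2 and are written along the minus strand, with capitals marking GAGGAAGT, a purine-rich word of the kind that ETS factors such as PU.1 bind:
Ly6c1: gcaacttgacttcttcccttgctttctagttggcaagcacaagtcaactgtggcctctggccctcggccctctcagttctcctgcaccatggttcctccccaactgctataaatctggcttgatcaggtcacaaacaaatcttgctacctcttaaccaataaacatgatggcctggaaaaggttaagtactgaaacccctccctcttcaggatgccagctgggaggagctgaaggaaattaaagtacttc
Ly6c2: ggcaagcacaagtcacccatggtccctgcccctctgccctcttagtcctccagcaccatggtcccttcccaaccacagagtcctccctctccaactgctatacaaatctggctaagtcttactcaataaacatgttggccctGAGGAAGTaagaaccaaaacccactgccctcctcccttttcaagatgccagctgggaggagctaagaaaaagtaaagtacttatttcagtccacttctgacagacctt
RefSeq gene models of both reach somewhat farther upstream, and of the 2 starts listed for Ly6c2 the outer one was used. Both windows were 75.9% identical over 216 aligned bases. GAGGAAGT, chosen after the sequences had been seen and searched on both strands, occurs once in the Ly6c2 window, 108 bases before the start, and not in the Ly6c1 window. It occurs in 2.44% of 32851 RefSeq promoter windows of the same length. The shorter word GGAA within it also occurs in the Ly6c1 window, where it is not marked. A match describes the letters and is not a measured binding site, and a link to the levels of both genes was not tested.

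Ly6c1 was listed at 0, 0.0665 and 0.0501 TPM in the libraries labelled CKO, against 0 TPM in each WT library. These values stand for 0, 3 and 2 reads in the libraries labelled CKO. With 3 reads taken as the limit that a count of 0 allows, the limit was 0.0586 to 0.0861 TPM over the 4 libraries at 0, so a difference was hardly detectable at this depth. Ly6c2 had 81.0, 93.5 and 135 TPM in the libraries labelled CKO, against 132, 68.6 and 84.6 TPM in WT. CKO 3 and WT 1 were the highest and WT 2 was the lowest, and the groups overlapped. Its means were 103 ± 28.5 TPM in the libraries labelled CKO and 95 ± 32.9 TPM in WT (SD, n = 3 each).

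Vcan, at chr13:89655310-89742512 on the minus strand, encodes versican, a large proteoglycan of the matrix that classical monocytes make. It had 1.39, 1.78 and 3.05 TPM in the libraries labelled CKO, against 2.15, 1.84 and 1.6 TPM in WT. F13a1, at chr13:36867178-37050244 on the minus strand, encodes the A chain of coagulation factor XIII, which crosslinks fibrin, and macrophages express it too. It had 353, 352 and 199 TPM in the libraries labelled CKO, against 223, 290 and 360 TPM in WT. Both genes separated the sides of the first component in opposite directions. On the positive side Vcan was higher by 0.51 and F13a1 lower, at -0.60, as differences of mean log2(TPM + 0.1). Because the sides themselves come from these values, the comparison is descriptive. Over all genes tested, 47.3% did not overlap between the sides, and 2 of the 7 monocyte genes tested did not.

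Plac8, at chr5:100553733-100572205 on the minus strand, encodes a small cysteine-rich protein of myeloid cells and their progenitors. Plac8 stood at 93.9, 96.5 and 108 TPM in the libraries labelled CKO, against 101, 66.6 and 102 TPM in WT. Hp, at chr8:109575128-109579172 on the minus strand, encodes haptoglobin, which binds free haemoglobin and which neutrophil precursors also store. Hp stood at 62.5, 57.0 and 55.3 TPM in the libraries labelled CKO, against 68.3, 45.5 and 69.7 TPM in WT. WT 2 was the lowest library for both genes, and the libraries labelled CKO lay close together, with SDs of 7.73 TPM for Plac8 and 3.78 TPM for Hp, against 20 and 13.6 TPM in WT. The summed level of the 19 neutrophil markers measured was 7570 to 8740 TPM in the libraries labelled CKO and 6293 to 9160 TPM in WT, lowest in WT 2 and highest in WT 3, as for Hp. By genotype 11 of the 19 were positive and 8 negative in log2 difference, with a median of 0.01, where 51.1% of all genes tested were positive. By limma 0 were called, with 0 at an unadjusted p under 0.05, against 2.18% of all genes. The part of neutrophil RNA in these values was not tested.

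**Figure D1:**
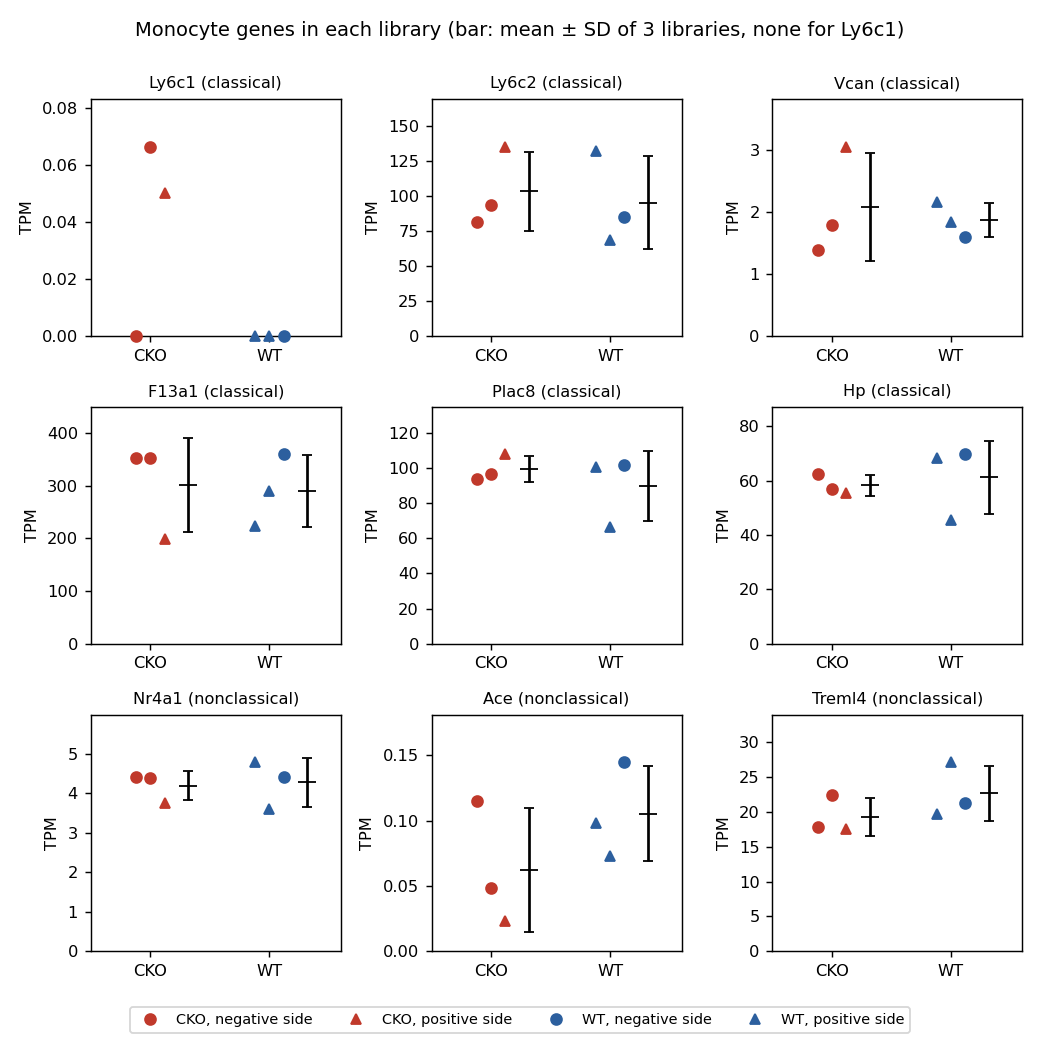
Level of each of the 9 genes in TPM (y axis, from 0) in the 3 libraries labelled CKO (red) and the 3 labelled WT (blue), with circles and triangles for the negative and positive side of the first principal component and bars for mean ± SD (none for Ly6c1). The groups overlap for every gene, and for Ly6c2 the single points run from 68.6 to 135 TPM.

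The nonclassical genes spanned a wide range of levels. Nr4a1, at chr15:101266846-101274794 on the plus strand, encodes the orphan nuclear receptor Nur77, an immediate early gene product that nonclassical monocytes need. It had 4.41, 4.39 and 3.76 TPM in the libraries labelled CKO, against 4.79, 3.6 and 4.42 TPM in WT. Its highest library stood 1.33-fold above its lowest, the narrowest range of the 8 genes detected in every library, and the groups overlapped. The 250 bases before the 1 start listed for it in RefSeq's promoter table, at chr15:101266596-101266845 on the plus strand of GRCm38.p6, are shown because Nr4a1 is set against other immediate early genes below, with capitals marking TGCGTCA, a word close to the binding words of AP-1 and CREB factors:
Nr4a1: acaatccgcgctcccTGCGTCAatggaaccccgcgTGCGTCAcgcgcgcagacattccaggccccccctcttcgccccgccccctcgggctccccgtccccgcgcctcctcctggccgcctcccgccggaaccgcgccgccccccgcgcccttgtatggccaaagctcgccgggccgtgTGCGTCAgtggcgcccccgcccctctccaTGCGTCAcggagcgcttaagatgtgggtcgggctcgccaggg
The RefSeq gene model begins farther upstream, and that region is not shown. This word was chosen after the sequence had been seen and searched on both strands. It occurs 4 times here, all on the strand of the gene, 235, 215, 71 and 42 bases before the start. Of the 32851 RefSeq promoter windows 1.75% hold it, and that of Nr4a1 is the 1 window with 4 copies.

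Treml4, at chr17:48264295-48275358 on the plus strand, encodes a receptor of the TREM-like family found on nonclassical monocytes and on some macrophages and dendritic cells. It had 17.9, 22.4 and 17.6 TPM in the libraries labelled CKO, against 19.7, 27.2 and 21.3 TPM in WT. WT 2 was the highest library, the reverse of its place for Ly6c2, Plac8 and Hp, and CKO 2 lay above 2 of the 3 WT libraries. Ace, at chr11:105967945-105989964 on the plus strand, encodes the angiotensin-converting enzyme, which endothelial cells carry as well. It was near the limit of detection, with 18, 7 and 3 reads in the libraries labelled CKO, against 11, 12 and 22 reads in WT. Those reads were 0.115, 0.0483 and 0.0234 TPM in the libraries labelled CKO, against 0.0983, 0.0730 and 0.145 TPM in WT. For counting error only, the exact 95% Poisson interval was 10.7 to 28.4 reads in CKO 1, 2.8 to 14.4 in CKO 2 and 0.6 to 8.8 in CKO 3, against 5.5 to 19.7 reads in WT 1, 6.2 to 21.0 in WT 2 and 13.8 to 33.3 in WT 3. The interval of CKO 1 overlapped that of every WT library. That of CKO 3 overlapped those of WT 1 and WT 2 and lay below that of WT 3. Endothelial markers, measured beside it, summed to 62.5 to 71.3 TPM in the libraries labelled CKO and 62.2 to 71.2 TPM in WT. Most of that sum was Eng, at 41.2 ± 3.21 TPM in the libraries labelled CKO and 37.8 ± 2.95 TPM in WT (SD, n = 3 each). Each of the 15 markers had reads in some library. Of the 14 tested, 0 were called by limma and 1 had an unadjusted p under 0.05, against 2.18% of all genes. Among the 14, Robo4 reached the filter through the WT libraries alone, so no count by direction is given. The part of endothelial cells in the Ace reads was not tested.

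Ordered by mean level over the 6 libraries, F13a1 stood first at 296 TPM, followed by Ly6c2 at 99.1, Plac8 at 94.7, Hp at 59.7, Treml4 at 21.0, Nr4a1 at 4.23, Vcan at 1.97, Ace at 0.0839 and Ly6c1 at 0.0194 TPM. The ranges of neighbours in this order overlapped for Ly6c2 and Plac8, for Plac8 and Hp, and for Ace and Ly6c1. Ly6c2 exceeded Plac8 in 3 of 6 libraries, and Plac8 exceeded Hp in 6 of 6. All other neighbours had separate ranges. The order therefore did not follow the subsets, since Treml4 lay above Vcan in every library while both lay below F13a1, Ly6c2, Plac8 and Hp.

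None of the 9 genes was called as changed between the genotypes. Genotype was tested with limma on log2(TPM + 0.1), on which scale the difference of a low gene is understated, and a gene was called at a Benjamini-Hochberg adjusted p under 0.05 over the 13722 genes that reached 0.1 TPM in 3 or more libraries. Of the 9 genes 7 passed that filter, and Ace and Ly6c1 did not. Among the 7, 0 were called, and among all genes tested 0 were called, or 0%. At an unadjusted p under 0.05 there were 0 of the 7 and 2.18% of all genes. limma-voom on reads recovered from the TPM values also called 0 of the 7, with 0 at an unadjusted p under 0.05, against 2.26% of all genes. The groups did not overlap for 0 of the 7 and for 5.12% of all genes tested, 2.84% with the libraries labelled CKO higher and 2.27% with them lower. Of all genes 0.265% are called in the authors' deposited table, and 0 of the 9.

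Most classical genes had small positive differences and the nonclassical genes negative ones, and every 95% interval spanned 0. Of the 5 classical genes tested, 4 had a positive log2 difference and 1 a negative one, with a median of 0.08, and 51.1% of all genes tested had a positive one, with a median of 0.00. Plac8 differed by 0.17 ± 0.18 (SE), with a 95% interval of -0.25 to 0.59. Ly6c2 differed by 0.14 ± 0.28, with an interval of -0.54 to 0.82. For Vcan and F13a1 the differences were 0.08 ± 0.30 and 0.03 ± 0.27, with intervals of -0.62 to 0.79 and -0.63 to 0.68. Hp was the exception, at -0.05 ± 0.17 and -0.46 to 0.37.

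Both nonclassical genes tested had a negative log2 difference. For Treml4 it was -0.23 ± 0.16 (SE), with a 95% interval of -0.61 to 0.15 and a limma adjusted p of 1.0. For Nr4a1 it was -0.02 ± 0.16, with an interval of -0.39 to 0.35. Treml4 kept its sign when each library was left out in turn, at -0.34 to -0.09. The value of -0.09 came without WT 2, its highest library. Each of the other 6 genes turned its sign when at least 1 library was left out. The share of all genes that keep their sign is not given. Without the filter, Ace differed by -0.37 ± 0.24, with a limma adjusted p of 1.0. Ly6c1, with 5 reads in the libraries labelled CKO and 0 in WT, differed by 0.44 ± 0.19 and was not called either. The authors' deposited table gives log2 fold changes of -0.23 for Treml4, -0.02 for Nr4a1 and -0.72 for Ace, with adjusted p-values of 1.0. For Ly6c1 that table gives 3.86, with an unadjusted p of 0.0137 and no call, a value that rests on those 5 reads.

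**Figure D2:**
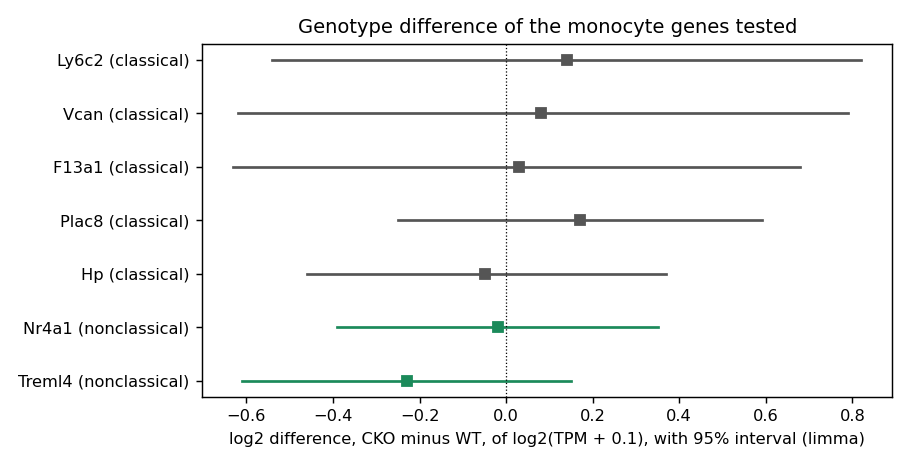
Difference of log2(TPM + 0.1), libraries labelled CKO minus WT (x axis), for the 7 genes tested, with the 95% interval of limma as a line; grey marks classical and green nonclassical genes. Every interval spans 0, from the widest for Vcan, at -0.62 to 0.79, to that of Nr4a1, at -0.39 to 0.35.

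The subsets were set against each other as the mean log2(TPM + 0.1) of the 3 nonclassical genes minus that of the 6 classical genes. This score was -2.72, -2.99 and -3.34 in the libraries labelled CKO, against -2.82, -2.54 and -2.67 in WT. CKO 3 was the lowest and WT 2 the highest, and CKO 1 lay above WT 1. The mean was -3.02 ± 0.31 in the libraries labelled CKO and -2.68 ± 0.14 in WT (SD, n = 3 each), a difference of -0.34. On the negative side of the first component the difference was -0.19 and on the positive side -0.66. With the 7 genes that passed the filter, it was -0.20 over all libraries, 0.02 on the negative side and -0.49 on the positive side. The score of all 9 genes thus leans on Ace and Ly6c1, which rest on 73 and 5 reads. No p is given for a score over chosen genes.

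The classical genes did not vary as a block among the libraries. CKO 3 was the highest library for Ly6c2, Vcan and Plac8 and the lowest for F13a1, while for Hp it was the second lowest. WT 2 was the lowest library for Ly6c2, Plac8, Hp and Nr4a1. As the root mean square difference of the values centred on each gene's mean, Hp and Nr4a1 were the closest pair, at 0.108 on the log2 scale, across the classical and nonclassical groups. Plac8 and Hp followed at 0.156. Vcan and F13a1 were the farthest pair, at 0.670, both within the classical group. The 6 libraries share no reads, but all genes of a library share its culture and depth.

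**Figure D3:**
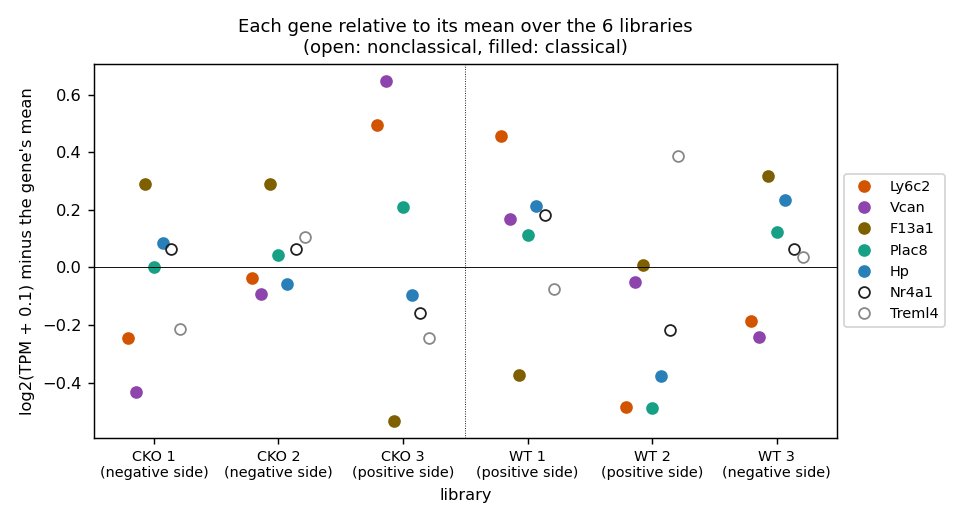
Level of the 7 genes tested in each library as log2(TPM + 0.1) minus the gene's mean over the 6 libraries (y axis), with filled points for classical and open points for nonclassical genes. In CKO 3, Vcan and Ly6c2 lie at the top and F13a1 at the bottom, and in WT 2, Treml4 lies above the other genes.

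By the same measure, the genes most like Ly6c2 among 10668 genes with a mean of at least 1 TPM were the fatty acid desaturase genes Fads2 and Scd1 and the cytokine gene Il1b, at 0.123, 0.129 and 0.133, where the median gene stood at 0.385. For Nr4a1 they were Ubl7, Acpp and Atg9a, at 0.022, 0.024 and 0.028. For Treml4 they were the peptidase gene Dpp4, the adhesion receptor gene Cd2 and Filip1l, at 0.074, 0.086 and 0.091. For Ace they were the transcription factor gene Gata1, the lipid transporter gene Mfsd2b and the P-selectin gene Selp, at 0.070, 0.091 and 0.092. The median gene stood closer to these than to Ly6c2, at 0.201 for Nr4a1, 0.256 for Treml4 and 0.36 for Ace. Gata1 had 2.20, 1.71 and 1.23 TPM in the libraries labelled CKO, against 2.16, 1.72 and 2.63 TPM in WT. Such likeness over 6 libraries is a description, and that of Ace rests on 3 to 22 reads per library.

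Among 21 other genes of classical monocytes, the log2 difference was positive for 15 and negative for 6, with a median of 0.11. Over all genes tested, 51.1% were positive. None of the 21 was called by limma or limma-voom. An unadjusted limma p under 0.05 was found for 2 of them, Lyz1 and Fn1, and for 2.18% of all genes. The most abundant were the calcium-binding protein genes S100a4 and S100a6 and the annexin gene Anxa2, with S100a4 at 3714 ± 196 TPM in the libraries labelled CKO and 3379 ± 435 TPM in WT (SD, n = 3 each). Ccr2, the receptor that lets classical monocytes leave the marrow, had 96.5, 88.2 and 64.0 TPM in the libraries labelled CKO, against 77.4, 65.2 and 96.1 TPM in WT. Lyz1, the lysozyme gene next to the locus of Lyz2, differed by 1.09 ± 0.30 and Fn1, the fibronectin gene, by -0.52 ± 0.20 on the log2 scale, and their groups did not overlap. Both had a limma adjusted p of 1.0. Over all genes tested, the groups did not overlap for 5.12%. In the authors' deposited table Lyz1 is called, with an adjusted p of 0.00602.

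Among 29 other genes of nonclassical monocytes, the log2 difference was positive for 12 and negative for 17, with a median of -0.01. Over all genes tested, 51.1% were positive. None of the 29 was called by limma or limma-voom. An unadjusted limma p under 0.05 was found for 2 of them, Fcgr4 and Cebpb, and for 2.18% of all genes. Fcgr4, an activating Fc receptor of nonclassical monocytes, had 125, 136 and 159 TPM in the libraries labelled CKO, against 82.7, 74.3 and 110 TPM in WT, a log2 difference of 0.67 ± 0.16 with a limma adjusted p of 1.0. It thus lay higher in each library labelled CKO than in any of WT, opposite in sign to Treml4, Nr4a1 and Ace. Of all genes tested, 2.84% lay higher in this way. Cebpb, a transcription factor gene that nonclassical monocytes depend on, differed by 0.63 ± 0.24, with overlapping groups. Cx3cr1, the fractalkine receptor, had 13, 14.0 and 10.1 TPM in the libraries labelled CKO, against 15.2, 11.2 and 12.5 TPM in WT, and the groups overlapped. The scavenger receptor gene Cd36 was the most abundant, at 1604 ± 142 TPM in the libraries labelled CKO and 1619 ± 184 TPM in WT (SD, n = 3 each).

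Nr4a1 belongs to the immediate early genes, which cells switch on within minutes of a stimulus, and its range between libraries was narrow beside most genes of several lists. Of 25 other immediate early genes, 23 had a wider range, as the highest library over the lowest, and their median range was 2.36-fold, against 1.33-fold for Nr4a1. A wider range than that of Nr4a1 was also found for 18 of 21 other classical genes, 24 of 29 other nonclassical genes and 18 of 19 neutrophil markers. The narrow range was thus not particular to the immediate early comparison. It stood out less beside 14 macrophage markers, 10 of them wider with a median of 1.44-fold. Of 7 genes of the Trem and Treml cluster, described below, 4 were wider, with a median of 1.34-fold. The share over all genes is not given. Egr1 had 35.7, 24.4 and 6.49 TPM in the libraries labelled CKO, against 17.6, 16.1 and 20.3 TPM in WT, a 5.50-fold range. Fos had 243, 126 and 124 TPM in the libraries labelled CKO, against 215, 148 and 155 TPM in WT. The other members of the Nr4a family were lower than Nr4a1, with Nr4a2 at 0.900 ± 0.134 TPM in the libraries labelled CKO and 0.983 ± 0.316 TPM in WT, and Nr4a3 at 0.0925 ± 0.0480 and 0.0657 ± 0.0579 TPM (SD, n = 3 each). By genotype the log2 difference was positive for 14 of the 25, against 51.1% of all genes tested, and negative for 11, with a median of 0.07. None was called by limma or limma-voom, with 0 at an unadjusted limma p under 0.05, and the smallest belonged to Egr3, at 0.63 ± 0.27 with overlapping groups.

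**Figure D4:**
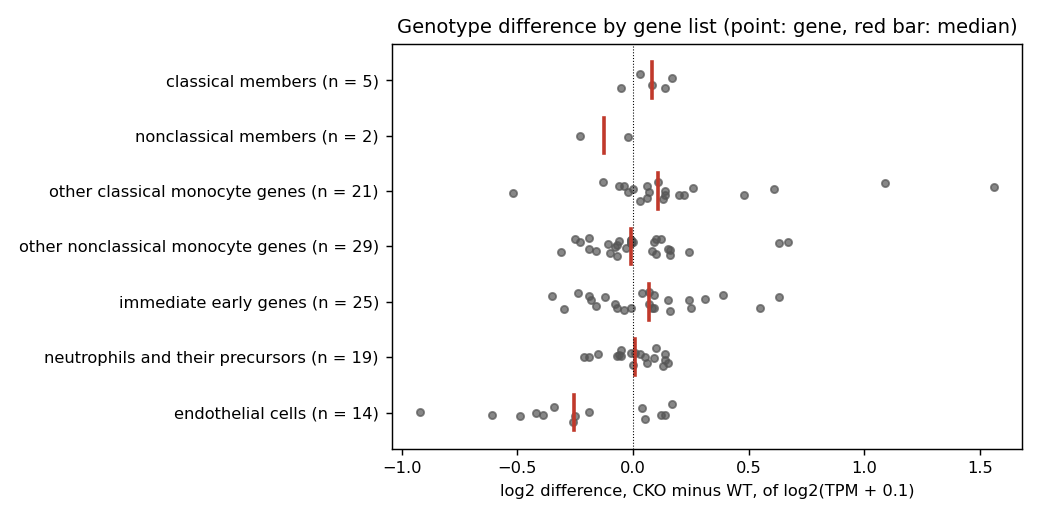
Difference of log2(TPM + 0.1), libraries labelled CKO minus WT (x axis), of each gene tested in 7 groups of genes, with the median of each group as a red bar. The medians of the classical and nonclassical genes described here, 0.08 and -0.12, stand beside 0.11 and -0.01 for the other classical and nonclassical genes. In the endothelial group, Robo4 reached the filter through the WT libraries alone.

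Around Ly6c1 and Ly6c2, the genes of the Ly6 cluster differed widely in level. Ly6e, which many cell types express, had 355, 451 and 486 TPM in the libraries labelled CKO, against 435, 275 and 394 TPM in WT. Ly6a, the stem cell antigen Sca-1 and an interferon-inducible gene, had 9.84, 16.8 and 78.2 TPM in the libraries labelled CKO, against 10.0, 5.90 and 8.33 TPM in WT. CKO 3 thus stood apart, and the log2 difference of 1.56 ± 0.72 fell to 0.70 without that library. It was not called by limma (adjusted p = 1.0) and is called in the authors' deposited table, with an adjusted p of 0.0449. Ly6d, a marker of early B lineage cells, differed by -0.57 ± 0.23 on the log2 scale, with overlapping groups and without a call. CKO 3 was the highest library for Ly6c2, Ly6a, Ly6e, Ly6i and Them6 and the lowest for Ly6d and Lynx1.

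Near Treml4, the Trem and Treml cluster held Trem2, a lipid-sensing receptor of macrophages, at 835 ± 101 TPM in the libraries labelled CKO and 862 ± 84.9 TPM in WT (SD, n = 3 each). Treml1, a receptor of platelets and megakaryocytes, had 9.63 ± 2.35 TPM in the libraries labelled CKO and 11.1 ± 1.49 TPM in WT, and Treml2 18.5 ± 2.15 and 18.2 ± 3.02 TPM. Of the 7 cluster genes tested, 2 lay above 0 and 5 below it by the log2 difference, and none was called. Over all genes tested, 51.1% lay above 0.

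T cells can also express Ly6C, and the summed markers of T and NK cells did not overlap between the groups. Summed over 15 markers, their level was 8.72 to 13.1 TPM in the libraries labelled CKO and 5.56 to 6.83 TPM in WT. Such a separation was not particular to this list. The other classical monocyte genes summed to 8550 to 9235 TPM in the libraries labelled CKO and 7859 to 8511 TPM in WT. The largest part of the T and NK sum was Nkg7, at 3.99, 4.58 and 5.32 TPM in the libraries labelled CKO, against 3.72, 2.53 and 3.35 TPM in WT. Cd2, also among the most abundant, went the other way, with means of 1.44 TPM in the libraries labelled CKO and 1.76 TPM in WT. Cd3e had 0.329, 0.432 and 0.287 TPM in the libraries labelled CKO, against 0.0658, 0.0672 and 0 TPM in WT. Cd3e and others of these markers reached the filter through the libraries labelled CKO alone, so neither a test nor a count is given for them. The part of T cells in Ly6c2, which was at 68.6 TPM or more in every library, was not tested.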

How the data were processed

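Strand-specific total RNA libraries were made, per the labels' protocols. Per the submitters' processing notes the build was mm10 and the tools were TopHat2 2.0.12, featureCounts of Subread, edgeR, Picard 1.127 and FastQC 0.11.2, without roles or counting options. The authors deposited TPM values per gene and library, a unit read from the values, which sum to the same total in each library. Per the file headers, p-values, adjusted p-values, a likelihood ratio score (not used here), log2 fold changes and log2 CPM means of the authors stand beside them; positive fold changes mean higher in CKO, from the values. Gene starts count from 0 there and are printed counting from 1.

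Reads were recovered from the TPM values as whole multiples of what 1 read is worth, with 100% of 94034 values whole to within 0.01. The genotypes were compared by limma 3.58.1 (R 4.3.3, mean-variance trend, two-sided) on log2(TPM + 0.1), and the fit and the recovery were tested on simulated data. p-values measure the spread between these samples, and 3 libraries a group allow no exact permutation p below 0.1. Replicate numbers were not used as pairs.

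The 9 genes, the gene lists and the alternatives were chosen with earlier results of these data known. The naming rule takes all 9 genes, the 3 most abundant and the 2 with the smallest p of each list, genes of the Ly6 and Trem clusters, and the 3 genes most like Ly6c2, Nr4a1, Ace and Treml4; not all are printed. Ccr2, Cx3cr1, Egr1, Fos, Nr4a2, Nr4a3 and Cd3e were chosen after their values were seen. Adgre1 and Adgre4 were matched by their older symbols, Emr1 and Emr4.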

Additional observations from a re-analysis of the deposited data

How the results depend on the processing

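Leaving out CKO 3 and WT 3 together, after which genotype and the sides of the first component coincide, raised the calls of limma over all genes. They rose to 1496 of 13441 genes tested, or 11.1%. In that fit 12 of 50 other monocyte genes and 3 of 24 immediate early genes were called. None of the 7 monocyte genes tested was called there or under any other alternative run; Ace and Ly6c1 were tested only without the filter, and were not called. Over single libraries left out, the calls stayed at 0 for all genes, the 7 monocyte genes tested, the other monocyte genes and the immediate early genes. The difference of the nonclassical minus classical score was -0.34, lay between -0.49 and -0.18 over single libraries left out, and was -0.73 with a pseudocount of 0.01 TPM and -0.74 with limma-voom values, both of which give the few reads of Ace and Ly6c1 more weight.

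The sign turned without CKO 3 and WT 3 for Ly6c2 (-0.13), Vcan (-0.32), Hp (0.10), Nr4a1 (0.08) and Treml1 (0.09), and for F13a1 (-0.19) once the side was a covariate. The cause was not tested. With 1 library dropped at a time, the difference spanned -0.07 to 0.40 for Ly6c2, -0.22 to 0.32 for Vcan, -0.15 to 0.30 for F13a1, -0.03 to 0.28 for Plac8, -0.25 to 0.06 for Hp and -0.14 to 0.07 for Nr4a1.

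The replicate block gave 0 calls by limma and 232 genes at an unadjusted p under 0.05, against 299 without it. Same-numbered libraries did not deviate together (r of -0.24, -0.15 and -0.53 across genes). These values also carry the division along the first component, so they cannot decide whether same-numbered libraries were paired. Ace and Ly6c1 rest on 73 and 5 reads in all, so differences in them were hardly detectable at this depth.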

Other observations

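Of 10 progenitor markers tested, the log2 difference was positive for 2 and negative for 8, where 51.1% of all genes tested were positive. By limma 0 were called and 1, Myb, had an unadjusted p under 0.05, against 2.18% of all genes. Myb, a transcription factor of blood progenitors, had 11.9 ± 0.366 TPM in the libraries labelled CKO and 14.5 ± 0.549 TPM in WT (SD, n = 3 each). The groups did not overlap for 2 of the 10, Myb and Cd34, both lower in the libraries labelled CKO, and for 5.12% of all genes tested. The summed level of the progenitor list was 104 to 127 TPM in the libraries labelled CKO and 110 to 128 TPM in WT, with Cebpa and Cdk6 the most abundant.

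For 9 plasmacytoid dendritic cell markers tested, the log2 difference was positive for 4 and negative for 5. By limma 0 were called and 2, Klk1 and Spib, had an unadjusted p under 0.05, against 2.18% of all genes. The groups did not overlap for 1 of the 9, Klk1, lower in the libraries labelled CKO, and for 5.12% of all genes tested. The list summed to 459 to 617 TPM in the libraries labelled CKO and 425 to 483 TPM in WT, most of it Bst2, which interferon also induces. The 14 macrophage markers summed to 10171 to 12879 TPM in the libraries labelled CKO and 10335 to 13086 TPM in WT, and 0 were called, with 0 at an unadjusted p under 0.05.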
